A study of Homo sapiens with 6 samples.

Results

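The kinesin genes were examined in PANC-1 cells with and without maslinic acid (MA). They were the genes of the deposited table whose symbol is KIF followed by a number and at most a further letter and digit, or KIFC1, KIFC2 or KIFC3. The pattern found 43 of 58825 genes. By the roles commonly given to them, 14 were counted as mitotic kinesins, 15 as transport kinesins and 14 as other kinesins. KIF14, a motor of cytokinesis, had the largest log2 fold change after MA when all 6 libraries were used, and its mRNA was lower in all 3 treated libraries. Most of the abundant mitotic kinesins differed little between the groups.

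PANC-1 is an established line of human pancreatic carcinoma cells, and MA is a plant triterpenoid found in olives. For RNA-seq, 3 cultures were exposed to 40 μM MA over 24 h and are named MA PANC-1 1, 2 and 3, while 3 cultures at 0 μM are named PANC-1 1, 2 and 3. All were described as biological replicates and kept in the same medium. A single line, dose and time point was sampled. The culture methods of the study name DMSO as the control treatment, and the RNA-seq methods give only 0 μM. Each gene had an FPKM value (fragments per kilobase of transcript, scaled to sequencing depth) and an estimated read count in every library, and the counts summed to between 56978375 and 70275355 per library. The epithelial keratins KRT8 and KRT18 were abundant, with mean levels of 198 and 310 FPKM. KRT7 (1.80 FPKM) and CDH1 (0.929 FPKM) were low, and KRT19 and EPCAM, also markers of ductal epithelium, averaged only 0.0533 and 0.0713 FPKM. The leukocyte genes PTPRC and CD3E, the endothelial genes PECAM1 and CDH5 and the acinar genes PRSS1, CPA1 and CELA3A averaged at most 0.0129 FPKM. CD68, a lysosomal gene used as a macrophage marker, was the exception among the markers of other cells at 30.6 FPKM.

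The library MA PANC-1 2 stood apart from the other libraries. The mean GC content of its transcripts, weighted by counts, was 51.2%, against 49.8% to 50.3% in the other 5 libraries. Transcripts poor in GC were low in that library, so the medians of the kinesin lists and many of the changes are also given without it or with a correction for GC content, and the plot of changes gives both values for every kinesin.

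Kinesins are motor proteins that hydrolyse ATP to move along microtubules or to take microtubule ends apart. Mitotic kinesins build the spindle, move chromosomes and complete cytokinesis, and many are transcribed mainly late in the cell cycle. Transport kinesins carry vesicles, organelles and ciliary components, mostly towards the plus ends of microtubules, and are used in cells that do not divide. The deposited annotation gave microtubule motor activity to 42 of the 43 genes, the spindle to 10 mitotic, 1 transport and 1 other kinesin, and the cilium to 0 mitotic, 4 transport and 3 other kinesins.

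The promoters of the mitotic kinesins shared sequence letters that were not used to choose them. The cell cycle genes homology region (CHR) is an element through which many late cell cycle genes are repressed in resting cells and activated before mitosis, and the CCAAT box, bound by NF-Y, often lies upstream of it. The letters of the CHR (TTTGAA or its variant TTCGAA) and of the CCAAT box were searched on both strands from 250 bases before to 50 bases after each RefSeq start. CHR letters were found in 11 of 14 mitotic kinesins, in 1 of 11 transport kinesins and in 1 of 9 other kinesins that had a window. They occurred in 16.4% of all 35116 windows. CCAAT letters were found in 11 of 14 mitotic, 4 of 11 transport and 3 of 9 other kinesins, against 34.6% of all windows. A gene with several starts was counted once if any of its windows held the letters, and such a match is a description of the sequence, not a bound site.

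The stretch from 90 to 15 bases before the start is printed for KIF11, KIF4A, KIF14 and KIF5B, because KIF11 and KIF4A carry both elements at a similar spacing, KIF14 had the largest log2 fold change over all 6 libraries, and KIF5B was the transport kinesin whose window held CHR letters. The sequences are RefSeq promoter windows of GRCh38.p14, written in the direction of the gene. Capitals mark CCAAT letters (ATTGG on the other strand) and CHR letters (TTCAAA on the other strand).
KIF11, chr10:92593040-92593115, plus strand: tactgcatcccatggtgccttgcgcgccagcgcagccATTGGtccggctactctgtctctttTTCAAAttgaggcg
KIF4A, chrX:70290014-70290089, plus strand: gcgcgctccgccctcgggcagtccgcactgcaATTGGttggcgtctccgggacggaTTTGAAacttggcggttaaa
KIF14, chr1:200620766-200620841, minus strand: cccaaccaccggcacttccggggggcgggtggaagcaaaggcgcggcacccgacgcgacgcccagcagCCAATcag
KIF5B, chr10:32056440-32056515, minus strand: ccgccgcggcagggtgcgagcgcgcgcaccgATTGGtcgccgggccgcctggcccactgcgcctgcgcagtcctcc

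Spacings were counted from the first CCAAT letter to the first CHR letter. In KIF11 the CHR letters began 25 bases after the first CCAAT letter, and in KIF4A 24 bases after it. KIF14 held the pair at a spacing of 23 bases, with its CHR letters beginning 2 bases after the start and so outside the stretch shown. In KIF5B the CHR letters lay 140 bases before the start, upstream of the CCAAT letters. KIF2B, KIF2C and KIF20A were the mitotic kinesins without CHR letters in their window, and KIF24 was the other kinesin with them. Windows were not found in the table used for KIF5A, KIF13B, KIFC2, KIFC3, KIF19, KIF21B, KIF26B, KIF27 and KIF28P.

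**Figure D1:**
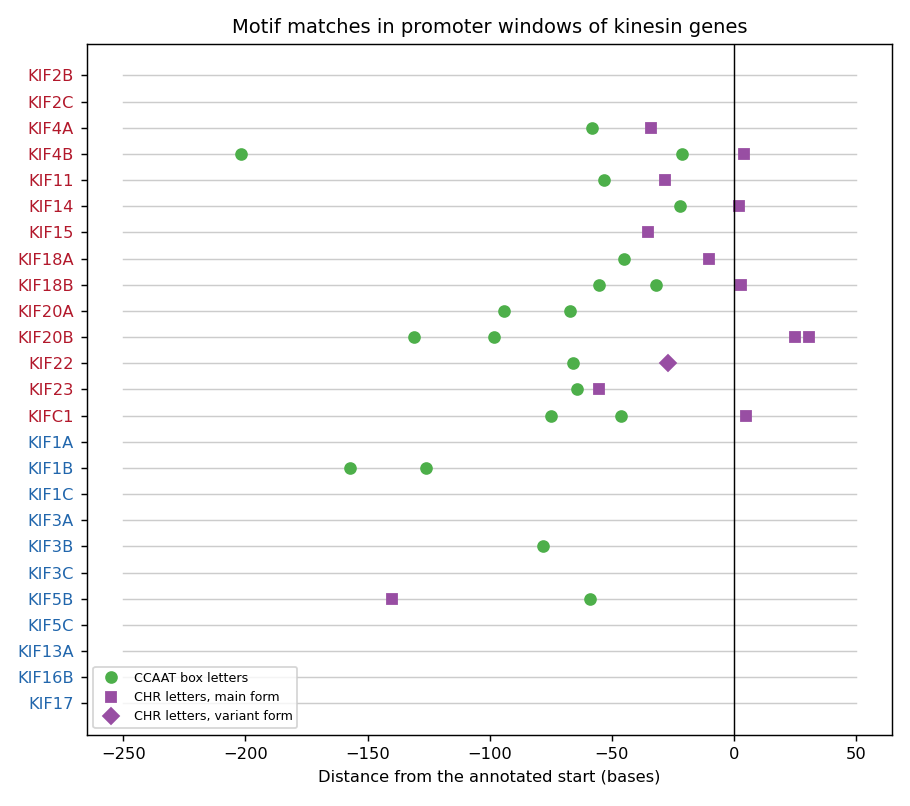
Position of motif letters in the first listed promoter window of each mitotic (red names) and transport (blue names) kinesin, in bases from the annotated start. Circles are CCAAT letters, squares TTTGAA and the diamond TTCGAA. CHR letters appear in 11 of the 14 mitotic kinesins and, among the transport kinesins, in KIF5B, 140 bases before its start. KIF5C has CCAAT letters in its second window, which is not drawn.

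The expression level of the kinesins varied widely, and the mitotic kinesins were the more abundant. Of the 43 genes, 36 had a mean of at least 0.1 FPKM over the 6 libraries and were tested: 13 mitotic, 14 transport and 9 other kinesins. The median of their mean levels was 15.5 FPKM for the mitotic, 3.06 FPKM for the transport and 1.98 FPKM for the other kinesins. At least 10 FPKM was reached by 7 mitotic, 4 transport and 0 other kinesins. KIF2C, a depolymerase that corrects faulty attachments of chromosomes to the spindle, was the most abundant at 66.0 FPKM and ranked 553 among the 17774 genes tested. It was followed by KIF1C (39.3 FPKM), KIFC1 (38.7 FPKM), KIF4A (34.2 FPKM) and KIF22 (30.7 FPKM). KIF1C carries vesicles, KIFC1 is a minus-end motor that focuses spindle poles, and KIF4A and KIF22 are chromokinesins, which bind chromosome arms. In this order of mean levels the neighbours KIF1C and KIFC1 lay closer together than the spread of either between libraries, as did KIF5B (21.0 FPKM) and KIF3B (20.9 FPKM) further down.

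The other 7 genes averaged under 0.1 FPKM and were not tested. KIF2B, a depolymerase counted as mitotic, and KIF6 had no count in any library. KIF5C, the neuronal heavy chain of conventional kinesin, averaged 0.0825 FPKM, KIF25 averaged 0.0396 FPKM, and KIF19, KIF26B and KIF28P averaged under 0.01 FPKM. KIF4B, a gene without introns that is nearly identical to KIF4A, held 0.608% as many counts as KIF4A, and which of the copies its reads came from is uncertain. KIF2A overlaps IPO11 on the same strand, with mean counts of 2595 for KIF2A and 4154 for IPO11, so reads of the shared interval may have been split between them.

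**Figure D2:**
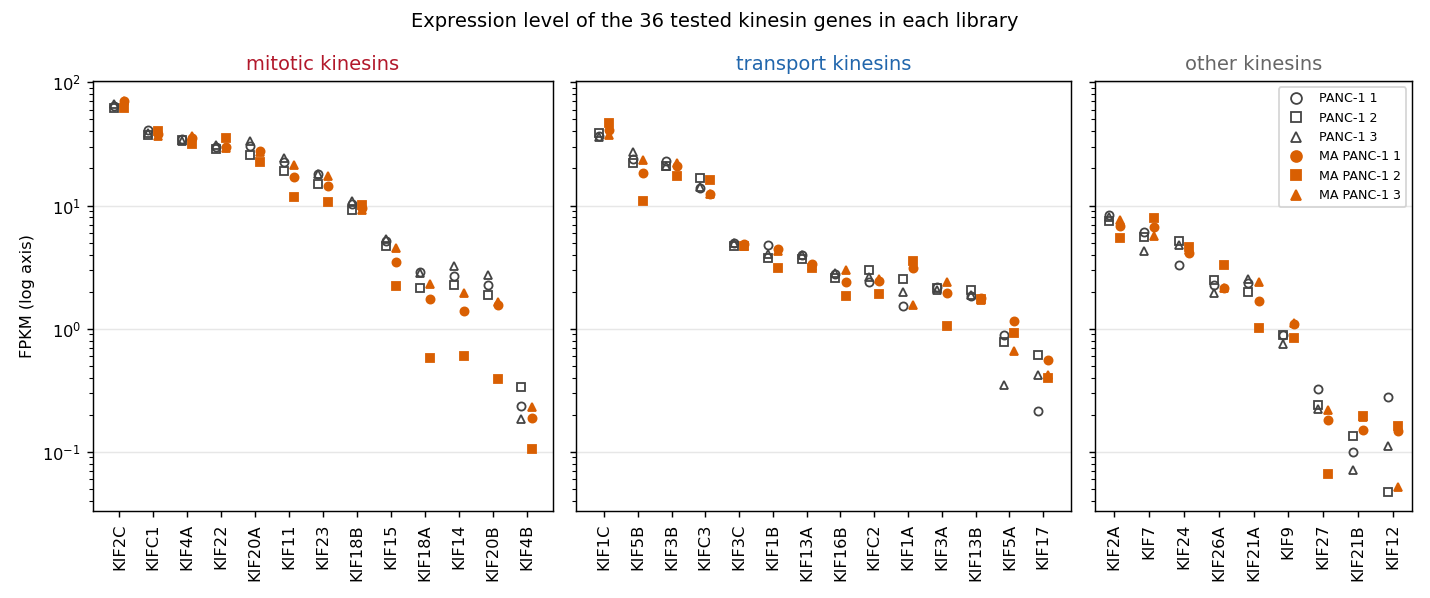
FPKM (log axis) of the 36 tested kinesins in each library, ordered by mean level within the mitotic, transport and other kinesins. Open symbols are PANC-1 and filled symbols MA PANC-1; circles, squares and triangles are replicates 1, 2 and 3. KIF2C leads at a mean of 66.0 FPKM, and the filled square of MA PANC-1 2 is the lowest point in 20 of the 36 genes.

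Few kinesins differed between MA PANC-1 and PANC-1 in the main fit, which had all 6 libraries and no replicate block (a term for the replicate number). In edgeR's quasi-likelihood test on the estimated counts, 3 of the 36 tested kinesins (8.33%) reached an unadjusted p-value under 0.05, against 11.2% of all genes tested. The count depended on the libraries used: with MA PANC-1 3 left out 30.6% of the kinesins were called, against 18.1% of all genes, and with PANC-1 1 or PANC-1 3 left out 0 were. It also depended on the model: with the replicate block 27.8% of the kinesins were called, against 12.5% of all genes. With the block and the correction for GC content 25.0% were, against 11.9%. KIF14 and KIF15 were lower (5.86% of all genes tested were) and KIF21B was higher (5.37% were) after MA. Only KIF14 also passed the fold change threshold of the study (at least 2 or at most 0.5), which together with the p-value defined a DEG. That was 1 of 36, and DEGs were 1.92% of all genes tested, with 1.25% lower after MA. No kinesin had an adjusted p-value under 0.05 in edgeR (0.0394% of all genes did) or in DESeq2, in which 4 had an unadjusted p-value under 0.05 (KIF14, KIF15, KIF21B and KIF20B, against 12.1% of all genes). The libraries of the groups did not overlap in 7 kinesins, against 19.9% of all genes tested: KIF14, KIF15, KIF20B, KIF13A, KIF13B and KIF27 were lower in each MA library than in any PANC-1 library (11.1% of all genes tested), and KIF21B was higher (8.79%). In RNA from whole cultures, fewer cells expressing a gene and less RNA per cell cannot be told apart.

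Mitotic kinesins had a lower median change than transport kinesins. On the log2 scale the median change was −0.24 for the 13 mitotic kinesins (9 negative and 4 positive), −0.07 for the 14 transport kinesins (9 negative and 5 positive) and 0.02 for the 9 other kinesins, with −0.0017 for all genes tested. In edgeR 2 mitotic (15.4%), 0 transport and 1 other kinesin (11.1%) had an unadjusted p-value under 0.05, against 11.2% of all genes tested. In DESeq2 0 transport kinesins did, against 12.1% of all genes. Relative to the PANC-1 mean, the median log2 ratio of the mitotic kinesins was −0.23, −0.56 and −0.13 in MA PANC-1 1, 2 and 3, and 0.02, −0.13 and 0.08 in PANC-1 1, 2 and 3. The MA libraries thus reached from the level of PANC-1 2 downwards, and MA PANC-1 2 was the lowest. For the transport kinesins the ratios were −0.07, −0.12 and −0.04 in the MA libraries and −0.01, 0.05 and −0.04 in the PANC-1 libraries. Without MA PANC-1 2 the medians were −0.11 for mitotic, −0.01 for transport and −0.07 for other kinesins, the last with its sign turned, and with the GC correction they were −0.12, −0.04 and 0.03. For all genes tested the median was −0.0080 without MA PANC-1 2 and 0.05 with the GC correction. With an unadjusted p-value under 0.05 there were 4 kinesins without MA PANC-1 2 (KIF14, KIF20B and KIF13A lower and KIF2C higher, against 10.3% of all genes tested) and 3 with the GC correction (KIF14 and KIF15 lower and KIF21B higher, against 13.2%). The difference between the mitotic and the transport list was not tested.

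**Figure D3:**
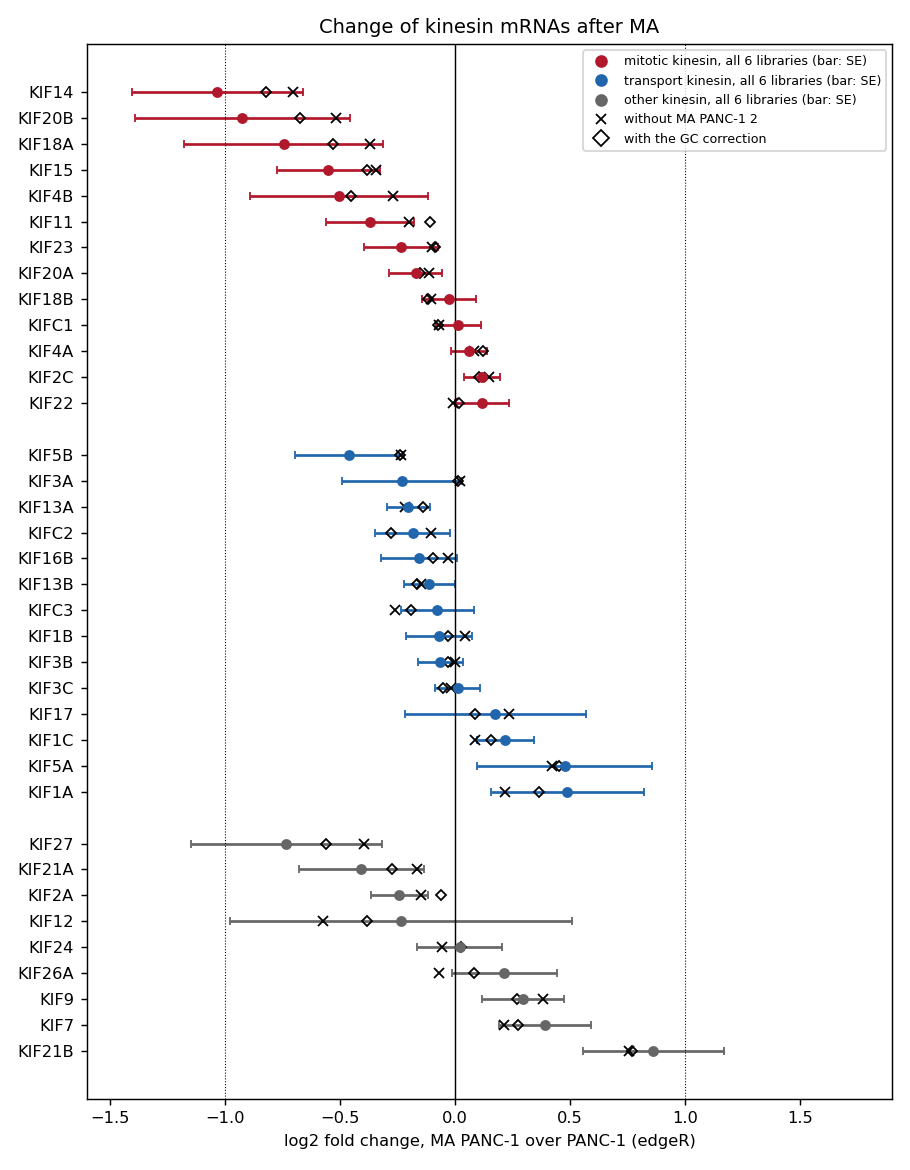
Log2 fold change (MA PANC-1 over PANC-1, edgeR) of the 36 tested kinesins. Filled points with bars are the estimates and standard errors from all 6 libraries, crosses are without MA PANC-1 2 and diamonds are with the GC correction; dotted lines mark a 2-fold change. KIF14 at −1.03 is past the lower line with all libraries, and at −0.71 without MA PANC-1 2 it is not.

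Among the mitotic kinesins, KIF14, KIF20B and KIF18A had the lowest log2 fold changes, and KIF14 and KIF15 passed the unadjusted threshold. KIF14 (ENSG00000118193, chromosome 1, 200551497 to 200620751 on GRCh38, minus strand) acts at the midbody, where it binds PRC1 and citron kinase. The MA PANC-1 libraries 1, 2 and 3 held 1.38, 0.600 and 1.96 FPKM, and the PANC-1 libraries 1, 2 and 3 held 2.66, 2.27 and 3.22 FPKM. Every MA library was below every PANC-1 library, and MA PANC-1 2 was far below the other MA libraries. The mean was 1.31 ± 0.681 FPKM (SD, n = 3) after MA and 2.72 ± 0.481 FPKM (SD, n = 3) without it. The log2 fold change was −1.03 (standard error 0.37, unadjusted p = 0.0266 and adjusted p = 0.429 from edgeR). The estimate shrank to −0.71 when MA PANC-1 2 was left out (unadjusted p = 0.0182 from edgeR) and to −0.82 with the GC correction (unadjusted p = 0.0119 from edgeR), both under a 2-fold change. The unadjusted p-value from edgeR was above 0.05 when MA PANC-1 1 (0.0549), PANC-1 1 (0.0503) or PANC-1 3 (0.0790) was left out.

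KIF15 and KIF11 work side by side, since KIF11 pushes the spindle poles apart and KIF15 can keep them apart once the spindle has formed. KIF15 was at 3.46, 2.22 and 4.56 FPKM in the MA libraries and at 5.19, 4.70 and 5.37 FPKM in the PANC-1 libraries. The groups did not overlap, but MA PANC-1 3 lay close to PANC-1 2. The log2 fold change was −0.55 (standard error 0.22, unadjusted p = 0.0427 and adjusted p = 0.439 from edgeR), and the GC correction gave −0.38 (unadjusted p = 0.0203 from edgeR). Leaving out MA PANC-1 2 gave −0.34 (unadjusted p = 0.0560 from edgeR), and the unadjusted p-value was also above 0.05 without MA PANC-1 1 (0.0897), PANC-1 1 (0.0903), PANC-1 2 (0.0636) or PANC-1 3 (0.104). KIF11 was at 16.9, 11.7 and 21.2 FPKM in the MA libraries and at 22.4, 19.1 and 24.2 FPKM in the PANC-1 libraries. Here MA PANC-1 3 was above PANC-1 2, so the groups overlapped, and the log2 fold change of −0.37 (standard error 0.19) did not pass the test (unadjusted p = 0.0925 from edgeR). It was −0.20 without MA PANC-1 2 and −0.11 with the GC correction, and −0.56 without MA PANC-1 3 (unadjusted p = 0.0141 from edgeR). With the replicate block KIF11 had −0.39 (unadjusted p = 0.0149 from edgeR), and −0.11 (unadjusted p = 0.187 from edgeR) with the GC correction too.

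KIF20B, a midzone motor of cytokinesis, and KIF18A, which dampens the movements of chromosomes at the metaphase plate, had larger changes than KIF11 but at low levels and with a wider spread. KIF20B was at 1.56, 0.389 and 1.65 FPKM in the MA libraries and at 2.28, 1.88 and 2.75 FPKM in the PANC-1 libraries. The groups were apart, and MA PANC-1 2 was the lowest by far (log2 fold change −0.92, standard error 0.47, unadjusted p = 0.0877 from edgeR). Without that library the log2 fold change was −0.52 (unadjusted p = 0.0303 from edgeR), and with the GC correction −0.67. With the replicate block KIF20B had −1.13 (unadjusted p = 0.0226 from edgeR), and −0.78 (unadjusted p = 0.0318 from edgeR) with the GC correction too. KIF18A was at 1.74, 0.574 and 2.31 FPKM in the MA libraries and at 2.87, 2.13 and 2.84 FPKM in the PANC-1 libraries, and MA PANC-1 3 lay within the PANC-1 range. Its log2 fold change of −0.74 (standard error 0.43) did not pass the test (unadjusted p = 0.128 from edgeR), and it was −0.37 with MA PANC-1 2 left out and −0.53 with the GC correction. With the replicate block KIF18A had −0.92 (unadjusted p = 0.0319 from edgeR), and −0.61 (unadjusted p = 0.0425 from edgeR) with the GC correction too.

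Abundant mitotic kinesins other than KIF11 showed small differences. KIF2C was at 71.1, 61.5 and 70.9 FPKM in the MA libraries and at 63.7, 61.9 and 66.5 FPKM in the PANC-1 libraries. MA PANC-1 2 was the lowest and the other MA libraries were the highest, with a log2 fold change of 0.12 (standard error 0.08, unadjusted p = 0.178 from edgeR). KIF4A was at 35.2, 31.6 and 36.6 FPKM against 34.5, 33.9 and 33.3 FPKM in PANC-1, a log2 fold change of 0.06. KIFC1 was at 37.8, 40.5 and 36.8 FPKM against 41.0, 37.7 and 38.5 FPKM, a log2 fold change of 0.01 whose sign turned with MA PANC-1 2 left out or the GC correction (−0.07 each). In both genes the groups overlapped. KIF22 (0.12), KIF18B (−0.03), KIF20A (−0.17), which moves the chromosomal passenger complex to the midzone, and KIF23 (−0.24), the motor of centralspindlin, did not pass the test either. With MA PANC-1 2 left out these were −0.01, −0.10, −0.11 and −0.10, so the sign of KIF22 turned. KIF4B, at most 0.335 FPKM in any library, had a log2 fold change of −0.50 (standard error 0.39), which was −0.27 with MA PANC-1 2 left out. KIF4A, KIF4B, KIF11 and KIF14, whose windows hold CCAAT and CHR letters with first letters 23 to 25 bases apart, thus had log2 fold changes of 0.06, −0.50, −0.37 and −1.03.

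**Figure D4:**
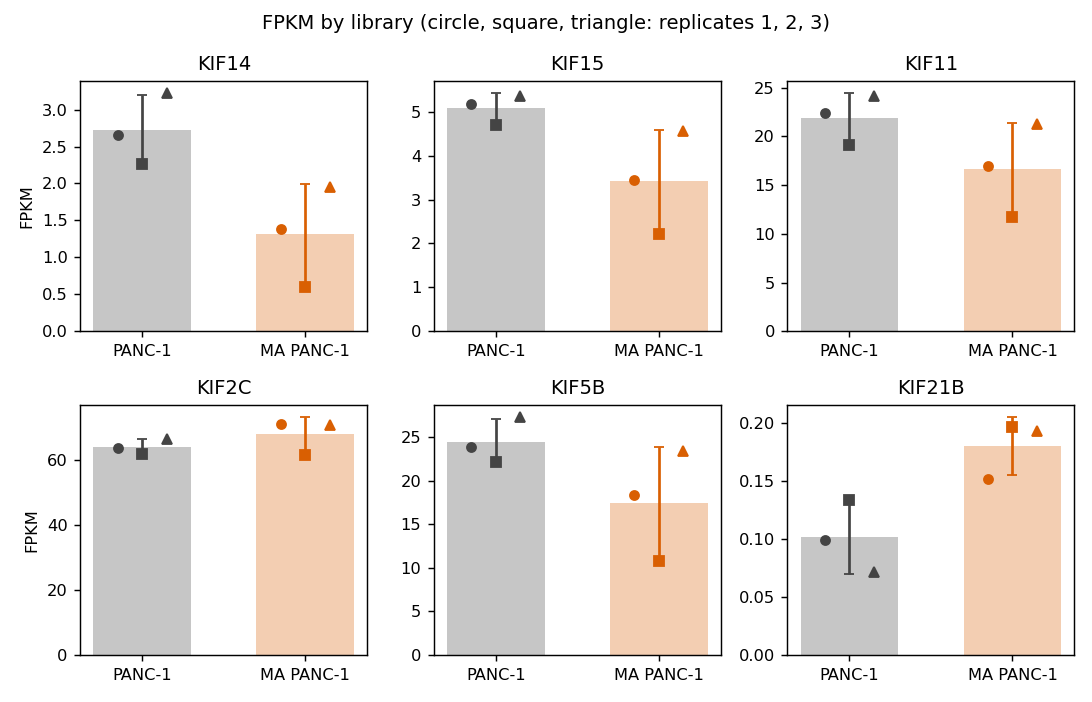
FPKM of KIF14, KIF15, KIF11, KIF2C, KIF5B and KIF21B by group. Bars start at 0 and show the mean of 3 libraries, error bars the SD, and circles, squares and triangles the replicates 1, 2 and 3. Groups are apart in KIF14, KIF15 and KIF21B and overlap in KIF11, KIF2C and KIF5B; the square of MA PANC-1 2 is the lowest point in all but KIF21B.

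None of the 14 transport kinesins passed the test in edgeR with all 6 libraries and no replicate block, against 11.2% of all genes tested. KIF5B (ENSG00000170759, chromosome 10, 32009015 to 32056425 on GRCh38, minus strand) is the widely expressed heavy chain of conventional kinesin, which moves mitochondria, lysosomes and other cargo. It was at 18.3, 10.8 and 23.4 FPKM in the MA libraries and at 23.9, 22.1 and 27.4 FPKM in the PANC-1 libraries. MA PANC-1 1 and 2 were below the PANC-1 range and MA PANC-1 3 was within it. Its log2 fold change of −0.46 (standard error 0.24, unadjusted p = 0.0905 from edgeR) was the lowest of the transport kinesins. Leaving out MA PANC-1 2 gave −0.23, and the GC correction gave −0.24, while leaving out MA PANC-1 3 gave −0.70 (unadjusted p = 0.0144 from edgeR). The heavy chain KIF5A, of neurons, was at 0.910 ± 0.247 FPKM (SD, n = 3) after MA and at 0.669 ± 0.282 FPKM (SD, n = 3) without it.

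KIF1C was at 41.0, 46.8 and 37.5 FPKM in the MA libraries and at 36.4, 38.5 and 35.9 FPKM in the PANC-1 libraries. MA PANC-1 2 was its highest library, and the log2 fold change of 0.22 (standard error 0.12, unadjusted p = 0.117 from edgeR) was 0.09 without that library. It was 0.31 without MA PANC-1 3 (unadjusted p = 0.0332 from edgeR). KIF3B, a motor subunit of heterotrimeric kinesin, which serves ciliary transport, was at 21.1, 17.5 and 22.2 FPKM against 23.1, 21.0 and 20.9 FPKM. Its groups overlapped (log2 fold change −0.06), as did those of its partners KIF3A (−0.23, and 0.02 without MA PANC-1 2) and KIF3C (0.01). KIF13A, a motor of recycling endosomes, had groups apart at 3.25 ± 0.118 against 3.84 ± 0.168 FPKM (SD, n = 3 in each), with a log2 fold change of −0.20 (standard error 0.09, unadjusted p = 0.0642 from edgeR) that was −0.22 without MA PANC-1 2. KIF13B was also apart, at a log2 fold change of −0.11. KIFC3, a minus-end motor, KIF16B, of early endosomes, KIF1B and KIFC2 had log2 fold changes between −0.18 and −0.07 with all 6 libraries. Without MA PANC-1 2 they were −0.26, −0.03, 0.05 and −0.11. KIF1A, a motor of vesicles in axons, had 0.49, which was 0.22 with MA PANC-1 2 left out. With MA PANC-1 3 left out KIF1A had 0.78 (unadjusted p = 0.0121 from edgeR). KIF17 had 0.17, and −0.14 to 0.57 when a library was left out. KIFC3, KIF16B, KIF1B, KIFC2, KIF1A and KIF17 had overlapping groups.

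Among the other kinesins, KIF21B, a motor that limits the growth of microtubules, was higher after MA, at very low levels. It was at 0.151, 0.196 and 0.193 FPKM in the MA libraries and at 0.0989, 0.134 and 0.0712 FPKM in the PANC-1 libraries. The estimated counts were 125, 183 and 164 against 102, 128 and 62, so the groups overlapped in counts before library sizes were taken into account and were apart in FPKM. The log2 fold change was 0.86 (standard error 0.31, unadjusted p = 0.0251 and adjusted p = 0.429 from edgeR). Leaving out MA PANC-1 2 gave 0.75 (unadjusted p = 0.0725 from edgeR), and the unadjusted p-value was also above 0.05 without MA PANC-1 3 (0.0576), PANC-1 1 (0.0664) or PANC-1 3 (0.0716). With limma the value was 0.48 on log2(FPKM + 0.1) (unadjusted p = 0.163) and 0.10 on log2(FPKM + 1) (unadjusted p = 0.167). KIF2A, a depolymerase of spindle poles and axons, was at 6.60 ± 1.09 FPKM after MA and at 7.97 ± 0.448 FPKM without it (SD, n = 3 in each; log2 fold change −0.24, and −0.15 with MA PANC-1 2 left out). KIF7, which regulates Hedgehog signalling at the tip of the cilium, was at 6.77 ± 1.19 against 5.32 ± 0.960 FPKM (0.39, and 0.21 with that library left out), and KIF24, of the centriole, at 4.35 ± 0.235 against 4.41 ± 0.989 FPKM (0.02, and −0.06 with it left out). None of these 3 passed the test with all 6 libraries and no replicate block. Without MA PANC-1 3 the log2 fold change was −0.33 for KIF2A (unadjusted p = 0.0347 from edgeR) and 0.53 for KIF7 (unadjusted p = 0.0322 from edgeR). With the block KIF7 had 0.39 (unadjusted p = 0.0319 from edgeR). For KIF2A the log2 fold change was −0.16 with overlapping genes summed and −0.06 with the GC correction. KIF27 had groups apart and a log2 fold change of −0.73 (standard error 0.42), at means of 0.156 and 0.263 FPKM, and leaving out MA PANC-1 2 gave −0.40. KIF21A, KIF26A, KIF9 and KIF12 did not pass the test, with log2 fold changes between −0.41 and 0.30. With MA PANC-1 2 left out, KIF21A moved from −0.41 to −0.17, KIF12 from −0.24 to −0.57 and KIF26A from 0.21 to −0.07. Over all the fits with a library left out KIF12 ranged from −0.65 to 0.62, so its direction was not settled.

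The kinesins with the lowest log2 fold changes after MA mostly had transcripts poor in GC. MA PANC-1 2 was the lowest library in 20 of the 36 tested kinesins (55.6%), against 35.1% of all genes tested: in 10 of 13 mitotic, 7 of 14 transport and 3 of 9 other kinesins. A split at 45% GC, chosen after the values were seen, put 11 of the 36 tested kinesins on the low side: 6 mitotic, 2 transport and 3 other kinesins. All 11 had a negative log2 fold change, with a median of −0.46, and all 11 were lowest in MA PANC-1 2. Of the 6275 genes tested under 45% GC, 72.0% had a negative log2 fold change, with a median of −0.16, and 65.2% were lowest in MA PANC-1 2. The 25 kinesins at or over 45% GC had a median of 0.01, with 11 negative and 9 lowest in MA PANC-1 2. For the 11446 genes tested on that side, the median was 0.09, 38.3% were negative and 18.6% were lowest in MA PANC-1 2.

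KIF14 and KIF11 had the same GC content, 38.3%, and KIF20B (34.2%) and KIF18A (37.0%) the lowest of all. The transport kinesins under 45% were KIF3A and KIF5B. Without MA PANC-1 2 the median of the 11 kinesins under 45% GC was −0.23, and with the GC correction it was −0.27. Across the 36 kinesins the log2 fold change and the GC content had a Pearson's r of 0.692, against 0.152 across all genes tested. The log2 fold changes ran from −11.3 to 13.7 over all genes and from −1.03 to 0.86 over the kinesins, so these r values are not directly comparable. For the kinesins r was 0.412 without MA PANC-1 2 and 0.483 with the GC correction, and it was not computed for all genes in those fits. Each r is a description over genes that share the same libraries. The mitotic kinesins had a median GC content of 45.7% and the transport kinesins of 53.0%. How much of their difference goes with GC content was not tested.

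**Figure D5:**
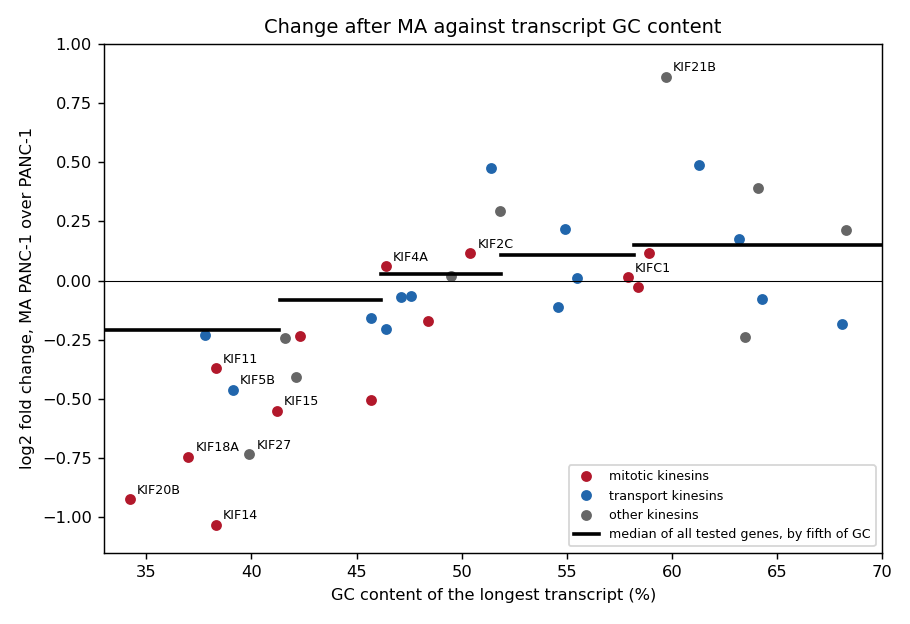
Log2 fold change after MA (edgeR) against the GC content of the longest transcript for the 36 tested kinesins, coloured by list. Black lines are the medians of all genes tested in 5 bins of GC content with equal numbers of genes, from −0.21 to 0.15. The 11 kinesins under 45% GC are all below 0.

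Genes that work with the kinesins in mitosis were examined next, and their rate of calls was not tested against that of other genes. Of 14 partners of the mitotic kinesins, 2 (14.3%) passed the unadjusted threshold of 0.05 in edgeR, against 11.2% of all genes tested. Both were lower after MA (5.86% of all genes were). With the GC correction 1 was lower and 1, RACGAP1, was higher (0.27, unadjusted p = 0.0106 from edgeR), against 13.2% of all genes. With MA PANC-1 2 left out 2 were lower and RACGAP1 was higher (0.19, unadjusted p = 0.0399 from edgeR), against 10.3%. CENPE, a kinesin of the kinetochore whose symbol falls outside the pattern, was at 0.667, 0.216 and 0.732 FPKM in the MA libraries and at 0.978, 1.08 and 1.26 FPKM in the PANC-1 libraries. The groups were apart, MA PANC-1 2 was again the lowest, and the log2 fold change was −1.02 (standard error 0.40, unadjusted p = 0.0369 and adjusted p = 0.435 from edgeR). With MA PANC-1 2 left out it was −0.66 and with the GC correction −0.77, both under a 2-fold change. PRC1, the bundler of midzone microtubules that recruits KIF4A and KIF14, was at 27.5 ± 1.39 against 32.7 ± 2.38 FPKM (SD, n = 3 in each), and its groups were apart. Its log2 fold change of −0.21 (standard error 0.09, unadjusted p = 0.0428 and adjusted p = 0.439 from edgeR) came to −0.22 with MA PANC-1 2 left out. With the GC correction it was −0.18 and no longer passed (unadjusted p = 0.0563 from edgeR). With the replicate block PRC1 did not pass either (unadjusted p = 0.0589 from edgeR). The most abundant partners, TPX2, a spindle assembly factor, and CDCA8, of the chromosomal passenger complex, had log2 fold changes of −0.11 and 0.20 and did not pass the test. The median of the 14 was −0.0026, and 0.0070 with the GC correction (0.05 for all genes tested in that fit). In DESeq2 CENPE (unadjusted p = 0.00566) and ECT2 (unadjusted p = 0.0386), an activator of cytokinesis, passed the threshold, and PRC1 (unadjusted p = 0.0715) did not.

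None of the 8 proliferation markers passed the unadjusted threshold of 0.05 in edgeR (11.2% of all genes did) or DESeq2 (12.1% did). Their median log2 fold change was 0.05, or 0.06 with MA PANC-1 2 left out. With the GC correction it was 0.15, against 0.05 for all genes tested in that fit. MKI67, the gene of the Ki67 antigen, was at 17.6, 16.9 and 9.80 FPKM in the MA libraries and at 9.93, 8.87 and 21.9 FPKM in the PANC-1 libraries. The spread within each group exceeded the difference between them (log2 fold change 0.17, standard error 0.38, unadjusted p = 0.675 from edgeR). The log2 fold change of MKI67 was −0.06 to 0.69 when a library was left out. PCNA, the replication clamp, and CCNB1, the mitotic cyclin, were the most abundant markers, with log2 fold changes of 0.07 and 0.04. TOP2A, a topoisomerase that untangles chromosomes, had the largest log2 fold change of the list at −0.43 (standard error 0.23, unadjusted p = 0.103 from edgeR), followed by MCM2 at 0.24 and CDK1 at −0.21. With MA PANC-1 2 left out these were −0.21, 0.13 and −0.13, and with the GC correction −0.20, 0.14 and 0.11, so the sign of CDK1 turned.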

How the data were processed

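RNA-seq of 6 PANC-1 cultures was analysed, grouped by treatment as the labels give it; the labels name no batch. The authors deposited an FPKM value per gene and library, scaled by gene length and depth; genes without reads carry 0.0001. They also deposited estimated counts per gene and library, unnormalized and rounded to whole numbers. The submitters' processing notes name cutadapt 1.9, HISAT2 2.0.4 and StringTie 1.3.4d, DESeq2 and edgeR; the parameters and the annotation release are not given in the sources used here. Of the 43 kinesin positions, 20 were identical to GENCODE release 29 on GRCh38, and the others differed at the gene ends. The estimated counts sum to more than the reads the study lists, so precision was taken from the spread between replicates.

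Counts of the 17774 genes with a mean of at least 0.1 FPKM were compared with edgeR 4.0.16 (quasi-likelihood test, TMM factors, R 4.3.3), and p-values were adjusted by Benjamini-Hochberg over all of them. The biological coefficient of variation was 0.307. A DEG had an unadjusted p-value under 0.05 together with a fold change no smaller than 2 or no larger than 0.5. Standard errors are the log2 fold change divided by the square root of F. The GC correction removed a smooth trend (span 0.5, genes averaging 100 counts or more) on the GC content of the longest GENCODE transcript. Alternatives were DESeq2 1.42.0, limma 3.58.1 on log2(FPKM + 0.1) or log2(FPKM + 1), other filters and normalization, a replicate block, halved counts, summed overlapping genes, other list membership and leaving out each library. In an exact permutation test, 3 libraries against 3 cannot give a p-value under 0.1.

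Named in full were KIF14, KIF11 and KIF5B, the members of each list with an unadjusted p-value under 0.05 and its 3 most abundant, likewise with 2 for the partner lists, and MKI67. KIF20B, KIF18A, KIF13A, KIF27, ECT2, TOP2A, MCM2 and CDK1 were added after their values were seen. The members and all lists were chosen with earlier results of these data known. The proteome and the other assays of the study were not analysed here.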

Additional observations from a re-analysis of the deposited data

How the results depend on the processing

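The 13 kinesins named by the rule were compared with the 17 alternatives in 220 cases, of which 184 kept their direction and side of the threshold, 14 lost the unadjusted threshold, 11 gained it and 11 turned sign, all in KIFC1 and KIF24 and none of them called. KIFC1, at a log2 fold change of 0.01, was at −0.0074 with a mean of at least 1 FPKM, −0.026 and −0.025 with limma on log2(FPKM + 0.1) and log2(FPKM + 1), −0.0744 with the GC correction (−0.0734 with the block too), and −0.0688 to 0.0637 when a library was left out. KIF24, at 0.02, was at −0.00065 with a mean of at least 1 FPKM, and −0.15 to 0.16 when a library was left out. DEGs in the whole table numbered 342, and 569 with no filter, 93 at a mean of at least 1 FPKM, 44 with limma on log2(FPKM + 1), and 326 to 534 when a library was left out (534 without MA PANC-1 3). Genes with an adjusted p-value under 0.05 numbered 7, and 226 in DESeq2, 12 at a mean of at least 1 FPKM, 22 with the GC correction, and 3 to 24 when a library was left out. Kinesins with an unadjusted p-value under 0.05 numbered 3, and 0 to 11 when a library was left out: 11 with MA PANC-1 3 removed (30.6% of the kinesins against 18.1% of all genes), 1 with MA PANC-1 1 removed (2.78% against 7.93%), and 0 with either PANC-1 1 or PANC-1 3 removed (6.63% and 6.76% of all genes). Kinesin DEGs numbered 1 (DEGs were 1.92% of all genes tested), and 0 with limma on log2(FPKM + 1) (0.248% of all genes) and 0 with the GC correction (1.78%). They numbered 0 to 2 when a library was left out (1.83% to 3% of all genes). Adjusted calls among the kinesins were 0 in edgeR, DESeq2 and limma under every alternative run. The mitotic median of −0.24 stayed between −0.39 and −0.11 when a library was left out. The transport median of −0.07 was −0.12 at a mean of at least 1 FPKM and −0.12 with limma on log2(FPKM + 0.1), and −0.13 to −0.0097 when a library was left out. The causes of these shifts were not tested.

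Replicate numbers were shared between the groups, and the labels name no pairing. Deviations of same-numbered libraries correlated at 0.029, 0.050 and 0.072, each the highest for its library. Those of differently numbered libraries correlated at −0.048 to −0.0013. Whether the cultures were paired is not settled by these small values, and the main fit held no replicate block. With the replicate block the adjusted calls in the whole table were 0, and 2 with the GC correction too. Under the block, kinesins with an unadjusted p-value under 0.05 numbered 10 (27.8% against 12.5% of all genes; 9 with the GC correction too, 25.0% against 11.9%) and kinesin DEGs 2 (1.84% of all genes were DEGs there; 0 with the GC correction too). From edgeR, the transport kinesins among those 10 were KIF5B (unadjusted p = 0.0206) and KIF5A (unadjusted p = 0.0469), and with the GC correction too KIF5B, KIF5A and KIFC3. The value for KIF21B rests on 62 to 183 counts per library.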

Other observations

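Regulators of cell cycle genes and the genes of the opposing motor were also examined. Of 21 regulators, 2 (9.52%) passed the unadjusted threshold of 0.05 in edgeR, against 11.2% of all genes tested, and both were higher after MA (5.37% of all genes were). The median log2 fold change of the 21 was −0.05, which turned to 0.06 with MA PANC-1 2 left out. With the GC correction it was 0.09, against 0.05 for all genes tested in that fit. FOXM1, an activator of late cell cycle genes, measured 46.5, 26.2 and 14.9 FPKM in the MA libraries 1, 2 and 3, and 15.9, 15.6 and 17.2 FPKM in the PANC-1 libraries 1, 2 and 3. The values of MA PANC-1 1 and 2 were above and that of MA PANC-1 3 below every PANC-1 library (log2 fold change 0.88, standard error 0.36, unadjusted p = 0.0429 and adjusted p = 0.439 from edgeR; from 0.41 to 1.21 when a library was left out). The unadjusted p-value was 0.0819 without MA PANC-1 2 and 0.0576 with the GC correction, both from edgeR. E2F1, an activator of genes of the G1 to S transition, was at 43.9, 47.9 and 38.8 FPKM against 37.8, 35.5 and 35.9 FPKM. Its groups were apart, at a log2 fold change of 0.30 (standard error 0.12, unadjusted p = 0.0386 and adjusted p = 0.435 from edgeR), which was 0.18 (unadjusted p = 0.0693 from edgeR) with MA PANC-1 2 left out. MYBL2, which binds CHR elements with the MuvB complex, was the most abundant regulator at 165 FPKM, with a log2 fold change of 0.26 (0.12 with MA PANC-1 2 left out) that did not pass the test.

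Of 14 partners of transport kinesins, 1 (7.14%) passed that threshold, against 11.2% of all genes tested. The median log2 fold change was 0.08, and 14.3% were negative, against 50.2% of all genes tested and 38.3% of those at or over 45% GC. With the GC correction the median was 0.12, against 0.05 for all genes tested, and 4 of the 14 were negative. In that fit 2 passed the threshold, against 13.2% of all genes tested. The median GC content of the list was 59.0%. MAPK8IP1, a scaffold that links cargo to kinesin light chains, was at 27.4, 35.3 and 26.7 FPKM in the MA libraries and at 22.1, 22.5 and 20.9 FPKM in the PANC-1 libraries. Every MA library was above every PANC-1 library (log2 fold change 0.49, standard error 0.15, unadjusted p = 0.0125 and adjusted p = 0.390 from edgeR; 0.31 without MA PANC-1 2). PLEKHM2, which ties lysosomes to kinesin, was the next most abundant partner, and its log2 fold change of 0.33 (0.15 with that library left out) did not pass the test. Cytoplasmic dynein carries cargo towards minus ends. Of its 10 tested genes 2 (20%), both light chains, passed it, both higher after MA (5.37% of all genes tested were). DYNLL2 was at 11.6 ± 0.331 FPKM in the MA libraries and at 8.19 ± 0.477 FPKM in the PANC-1 libraries (SD, n = 3 in each), close together within each group and apart between them (log2 fold change 0.53, standard error 0.10, unadjusted p = 0.000839 and adjusted p = 0.222 from edgeR; 0.48 without MA PANC-1 2). Its unadjusted p-value from DESeq2 was 2.63e-05. DYNLRB1 was at 51.6 ± 2.84 against 41.4 ± 2.87 FPKM (SD, n = 3 in each; log2 fold change 0.36, unadjusted p = 0.0112 and adjusted p = 0.388 from edgeR; 0.28 without MA PANC-1 2), and the most abundant light chain, DYNLL1, did not pass the test at 0.14.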
